A study of Mus musculus with 9 samples.

Results

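Messenger RNA levels of 36 genes of the lysosome and of autophagy were followed through mouse liver in which bile flow had been blocked, with and without ligustilide. The genes were taken from a fixed list of lysosomal enzymes, lysosomal membrane proteins and autophagy machinery, and all 36 were found in a table of 21470 genes. They comprised 23 lysosome genes, 12 autophagy genes and Tfeb, a transcription factor that acts on both. Liver RNA was sequenced from 3 groups of mice with 3 libraries each. The first group had bile duct ligation (BDL) and ligustilide (BDL+LIG). The second had bile duct ligation alone (BDL), and the third had a sham operation (sham). Ligustilide was given at 10 mg/kg according to the design text, but the number 20 stands in the titles of these libraries, and the dose is not settled here. Strain, sex, age, the time after surgery and any vehicle were not given in the sources used here, nor was it stated whether the libraries of a group are separate animals, so p-values measure the spread between libraries, which may in part be technical. Bile duct ligation ties off the common bile duct, so that bile backs up in the liver, bile ducts multiply and scar tissue forms. Ligustilide is a phthalide found in the roots of Angelica and Ligusticum plants.

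The lysosome is an acidic, membrane-bound compartment in which proteases, glycosidases and lipases break down material delivered by endocytosis, phagocytosis and autophagy. In autophagy a double membrane closes around cytoplasm, and the resulting autophagosome fuses with a lysosome. The ULK1 kinase complex starts the process, the lipid kinase complex around Beclin 1 marks the membrane, and ubiquitin-like conjugation attaches LC3 and GABARAP proteins to it. TFEB is known to bind E-box sequences in the promoters of many lysosomal and autophagy genes when nutrient signalling at the lysosome is low. Hepatocytes use both systems for turnover of organelles and lipid droplets, and macrophages are rich in lysosomes.

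Values are FPKM, fragments scaled to the length of the transcript and to the size of the library, and each change is a difference of log2(FPKM + 1) between group means, given with its standard error (SE). The + 1 makes the change of low genes smaller than their ratio of levels. A gene is said to rise or fall where limma, fitted over 10142 genes, gave an adjusted p below 0.05. The 3 comparisons share libraries (BDL libraries enter both BDL against sham and BDL+LIG against BDL), so their changes are not independent. Depth was 30893098 to 37381734 recovered fragments per library, without those of Alb, Apoe and COX1, which could not be recovered. Within each group the libraries differed by more than sampling noise. Pearson correlations on the log2 scale were 0.983 to 0.988 among BDL+LIG libraries and 0.993 to 0.996 among BDL libraries. Among sham libraries they were 0.974 and 0.964 for library 1 with libraries 2 and 3 and 0.989 for libraries 2 and 3, so sham library 1 stood apart.

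The lysosome genes that changed were higher in ligated livers than in sham, and a smaller number were higher with ligustilide than with ligation alone. In BDL against sham 11 of 23 rose and 0 fell, where 22.9% of all tested genes rose and 6.76% fell. With ligustilide 7 of 23 rose and 0 fell in BDL+LIG against BDL, beside 9.98% and 1.79% of all tested genes. In BDL+LIG against sham 18 of 23 rose and 0 fell, against 43.7% and 8.92% of all tested genes. The median changes of the 23 genes were 0.39, 0.35 and 0.69 in these 3 comparisons, beside 0.16, 0.18 and 0.34 over all tested genes. No lysosome gene was lower at an unadjusted p below 0.05 in any comparison, and voom on recovered fragments also gave 0 falls. Lipa, Psap, Ctsd, Hexa and Gusb rose in all 3.

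The separation between groups could also be read library by library. Every BDL library was above every sham library for 17 of the 23 genes, as for 33.7% of all tested genes. The same held of BDL+LIG above BDL for 16 genes, beside 40.7%, and of BDL+LIG above sham for 19 genes, beside 45.7%. The FPKM of the 23 genes summed to 2632 to 3183 in BDL+LIG libraries, 2253 to 2298 in BDL libraries and 1500.3 to 1598 in sham libraries, and these ranges did not overlap. Without sham library 1, 12 lysosome genes changed in BDL against sham, 12 in BDL+LIG against BDL and 21 in BDL+LIG against sham. The count of 11 in BDL against sham was 7 without BDL library 2 or without BDL library 3.

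Markers of macrophages, which are rich in lysosomes, rose with the lysosome genes in both comparisons against sham. In BDL+LIG against BDL few of these markers passed, though most of their changes were above 0. In bulk liver, more cells of a type and more RNA per cell cannot be told apart. Of 18 tested macrophage and monocyte markers, without the lysosomal protein Cd68, 17 rose in BDL against sham, 2 in BDL+LIG against BDL and 17 in BDL+LIG against sham. Under median-of-ratios scaling 11, 1 and 14 rose. Over all tested genes 22.9%, 9.98% and 43.7% rose. In BDL+LIG against BDL the median change of these 18 markers was 0.33, with 15 above 0. It was 0.50 for 6 Kupffer cell markers, with 6 above 0, 0.35 for the lysosome genes and 0.18 for all tested genes. The summed FPKM of the macrophage and monocyte markers ranged over 855 to 1754 in BDL+LIG, 801 to 1062 in BDL and 170.3 to 441 in sham. The most abundant, Lyz2 (lysozyme), averaged 306 ± 112, 223 ± 43.4 and 32.2 ± 4.38 FPKM in that order (SD, n = 3 each). Of 6 Kupffer cell markers 6, 0 and 6 rose in the 3 comparisons (limma, 2 in BDL+LIG against BDL at an unadjusted p below 0.05, 0 by voom), and their sums were 358 to 791, 278 to 404 and 69.4 to 141. Both sums were highest in BDL+LIG library 3. That library was also the highest of its group for 15 of the 23 lysosome genes, among them Ctsd, Ctss, Hexa, Npc2 and Psap but not Lipa. In sham, library 1 was the highest of its group for 12 of the 23 genes. Both marker sums were lowest in that sham library, at 170.3 for macrophages and monocytes and 69.4 for Kupffer cells. BDL libraries 1, 2 and 3 were the highest of their group for 8, 7 and 8 of the 23 genes. The part of macrophages in the lysosome results was not tested.

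The rises between BDL+LIG and BDL were the least stable. The limma count of 7 was 0 without any one of the BDL libraries or without BDL+LIG library 3, with 11 or 12 genes at an unadjusted p below 0.05 in each case, and 1 without BDL+LIG library 2. Voom on recovered fragments gave 8.

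The counts also rest on the scaling, since the median change of all tested genes was above 0 in each comparison. Median-of-ratios scaling moved the median change of all tested genes to -0.02, 0.01 and -0.01 in the 3 comparisons. Under it, 6 lysosome genes rose and 2, Mcoln1 and Gaa, fell in BDL against sham. It left 0 changed in BDL+LIG against BDL (limma, 7 at an unadjusted p below 0.05), and in BDL+LIG against sham 9 rose and 2, Mcoln1 and Ctsz, fell. The median changes of the 23 genes, 0.17, 0.15 and 0.34, were still positive. Quantile normalization gave 10, 7 and 14 rises and 0 falls by limma, with 0 falls also by voom.

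**Figure D1:**
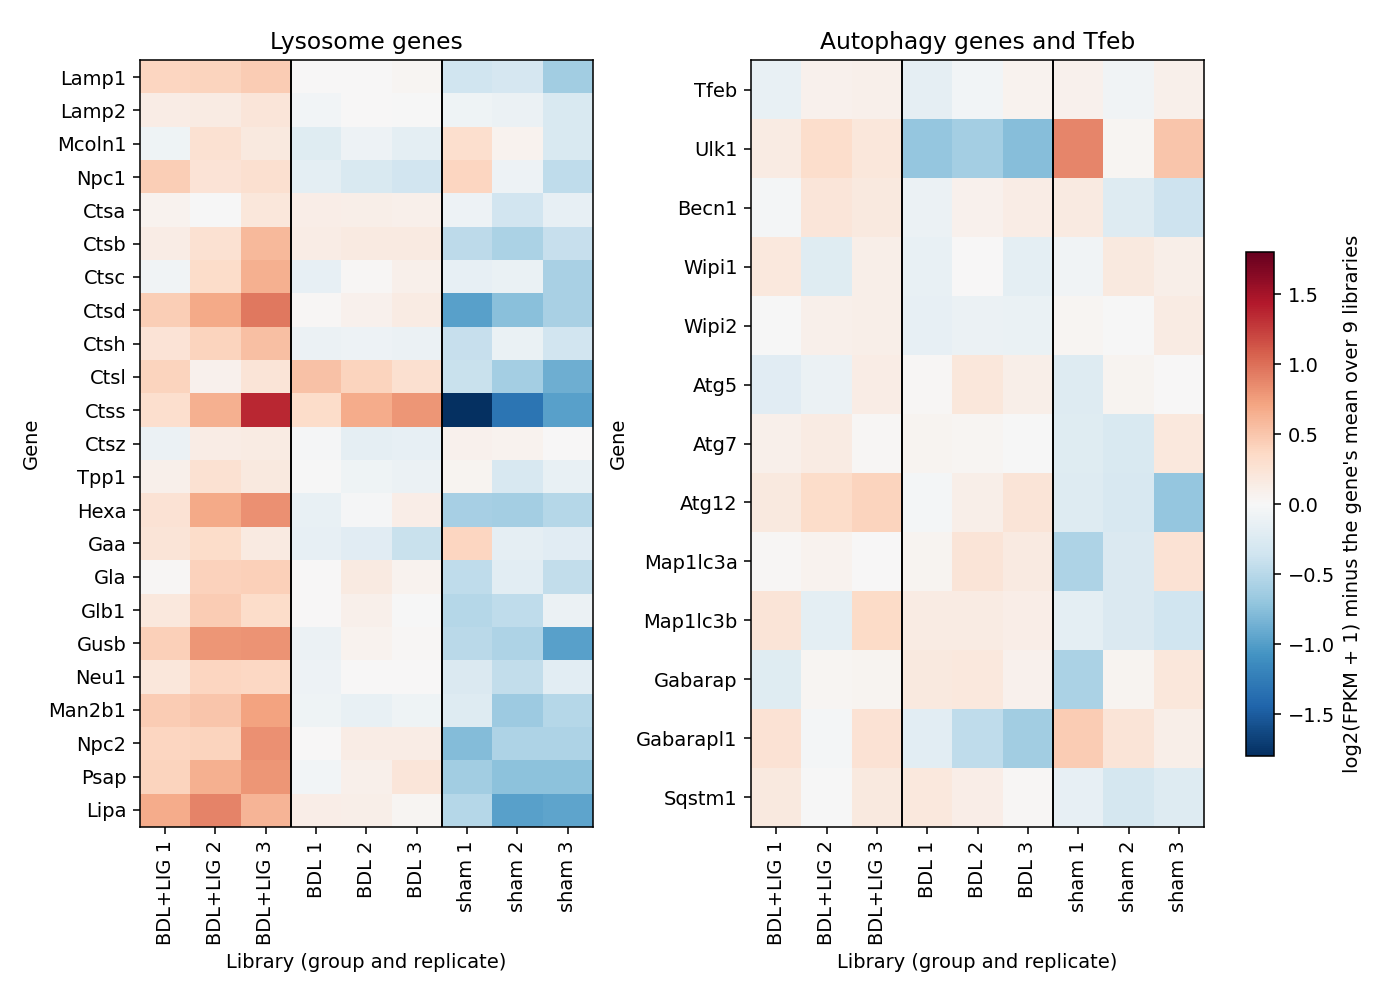
Heat map of the 36 genes (rows) in the 9 libraries (columns, 3 each of BDL+LIG, BDL and sham, divided by vertical lines); colour is log2(FPKM + 1) minus the gene's own mean over the 9 libraries, red above and blue below. Most lysosome rows run from red in BDL+LIG to blue in sham, whereas among autophagy genes Ulk1 and Gabarapl1 are blue in the 3 BDL libraries.

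Among membrane proteins of the lysosome, Lamp1, which encodes a heavily glycosylated protein that coats the inner face of the membrane, was the most abundant of the 23 genes. Its FPKM were 492, 494 and 517 in BDL+LIG, 379, 377 and 385 in BDL, and 294, 303 and 242 in sham. The 3 groups did not overlap. Lamp1 rose in BDL against sham by 0.45 ± 0.12 (SE, limma adjusted p = 0.0195) and in BDL+LIG against sham by 0.85 ± 0.12 (limma adjusted p = 0.000321). Its change in BDL+LIG against BDL was 0.40 ± 0.12 and missed the threshold (limma adjusted p = 0.0596).

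Lamp2, whose product also serves chaperone-mediated autophagy and fusion with autophagosomes, had 85, 85.8 and 89.5 FPKM in BDL+LIG, 74.3, 77.8 and 77 in BDL, and 72.7, 71.8 and 63.4 in sham. The groups were ordered without overlap, but the steps were small, and Lamp2 rose only in BDL+LIG against sham among the 3 comparisons, by 0.32 ± 0.10 (limma adjusted p = 0.0215), a value that was -0.13 under median-of-ratios scaling. Mcoln1, the calcium release channel of the lysosomal membrane, averaged 14.5 ± 1.87 FPKM in BDL+LIG, 11.6 ± 0.614 in BDL and 13.6 ± 2.84 in sham (SD, n = 3 each) and passed in no comparison. Npc1 encodes the membrane protein that exports cholesterol from the lysosome and averaged 25.9 ± 2.03 FPKM in BDL+LIG, 16.9 ± 1.06 in BDL and 20.3 ± 6.33 in sham (SD, n = 3 each). All BDL+LIG libraries were above all BDL libraries for Npc1, with a change of 0.59 ± 0.19 that missed the threshold (limma adjusted p = 0.0628), and sham spread from 14.7 to 27.2.

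Of the proteases, the aspartic protease cathepsin D gave the clearest steps. Ctsd had 404, 479.6 and 575 FPKM in BDL+LIG, 303, 315 and 329 in BDL, and 150.4, 176 and 199 in sham. No libraries of different groups overlapped, and BDL+LIG libraries spread more widely than BDL libraries. Ctsd rose in BDL against sham by 0.86 ± 0.16 (limma adjusted p = 0.00252), in BDL+LIG against BDL by 0.61 ± 0.16 (limma adjusted p = 0.0354) and in BDL+LIG against sham by 1.46 ± 0.16 (limma adjusted p = 5.53e-05).

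The cysteine cathepsins B, L and S rose in ligated livers without a further rise that passed under ligustilide. Ctss, the cathepsin of antigen-presenting cells that trims the MHC class II invariant chain, had 85.9, 109 and 179 FPKM in BDL+LIG, 87.6, 111 and 121 in BDL, and 19.2, 27.3 and 34.7 in sham. Its change in BDL against sham, 1.96 ± 0.27 (limma adjusted p = 0.000508), was the highest of the 23 genes, and BDL+LIG and BDL libraries overlapped (0.17 ± 0.27, limma adjusted p = 0.698). Ctsl had 310.1, 248 and 275 FPKM in BDL+LIG, 338, 310.1 and 287 in BDL, and 177, 153 and 127 in sham. It rose by 1.04 ± 0.15 in BDL against sham (limma adjusted p = 0.000626), and its value in BDL+LIG against BDL was -0.17 ± 0.15 (limma adjusted p = 0.456). Ctsb, with 198, 217 and 269 FPKM in BDL+LIG, 198, 201 and 202 in BDL and 129.9, 121 and 134 in sham, rose by 0.64 ± 0.13 in BDL against sham (limma adjusted p = 0.00435). For all 3 cathepsins every ligated library, treated or not, was above every sham library.

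Cathepsin H, an aminopeptidase that is also active in the lysosome, passed between BDL+LIG and BDL but not between BDL and sham. Ctsh had 197, 220.1 and 242 FPKM in BDL+LIG, 155, 156 and 154 in BDL, and 124, 153 and 131 in sham. It rose by 0.50 ± 0.12 in BDL+LIG against BDL (limma adjusted p = 0.0323), whereas BDL against sham gave 0.20 ± 0.12 (limma adjusted p = 0.263). Ctsz, an exopeptidase, averaged 225 ± 20.7 FPKM in BDL+LIG, 199.9 ± 11 in BDL and 224 ± 5.44 in sham (SD, n = 3 each). Its 3 BDL libraries were below the 3 sham libraries, but no comparison passed.

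None of the remaining proteases passed in BDL against sham or in BDL+LIG against BDL. Ctsc, which activates the serine proteases of granules, averaged 11.6 ± 3 FPKM in BDL+LIG, 8.98 ± 0.79 in BDL and 7.32 ± 1.41 in sham (SD, n = 3 each) and rose in BDL+LIG against sham by 0.59 ± 0.19 (limma adjusted p = 0.0249). Tpp1, a tripeptidyl peptidase, rose by 0.31 ± 0.12 in the same comparison (limma adjusted p = 0.0441), with -0.13 under median-of-ratios scaling, and passed in 5 of 18 alternatives. Ctsa, which protects beta-galactosidase and neuraminidase in a complex, averaged 62.7 ± 4.73 FPKM in BDL+LIG, 63.4 ± 0.472 in BDL and 51.4 ± 4.87 in sham (SD, n = 3 each). Its changes in BDL against sham (0.30 ± 0.11, limma adjusted p = 0.0649) and in BDL+LIG against sham (0.28 ± 0.11, limma adjusted p = 0.0527) missed the threshold.

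Among the glycosidases, which remove sugars from glycolipids and glycoproteins, Hexa, Gusb and Man2b1 rose under ligustilide. Hexa, the alpha subunit of beta-hexosaminidase A, had 37, 49.5 and 55.1 FPKM in BDL+LIG, 27.9, 30.1 and 33.3 in BDL, and 19.9, 19.6 and 21.1 in sham. The groups did not overlap, and the changes were 0.57 ± 0.15 in BDL against sham (limma adjusted p = 0.0157) and 0.60 ± 0.15 in BDL+LIG against BDL (limma adjusted p = 0.0311). Gusb, beta-glucuronidase, was less abundant, with 4.36, 5.91 and 5.99 FPKM in BDL+LIG, 2.72, 3.19 and 3.07 in BDL, and 1.85, 1.73 and 1.04 in sham. It rose by 0.67 ± 0.17 in BDL against sham (limma adjusted p = 0.0132) and by 0.68 ± 0.17 in BDL+LIG against BDL (limma adjusted p = 0.0321).

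Man2b1, the lysosomal alpha-mannosidase, had 31.6, 32.5 and 38.3 FPKM in BDL+LIG, 21.6, 20.7 and 21.5 in BDL, and 19.2, 14.1 and 15.7 in sham. All 3 groups were apart, and the step that passed between neighbours was BDL+LIG against BDL, 0.65 ± 0.13 (limma adjusted p = 0.0186), with 0.37 ± 0.13 for BDL against sham (limma adjusted p = 0.0562). Glb1, beta-galactosidase, and Neu1, the sialidase of its complex, rose in BDL+LIG against sham by 0.68 ± 0.14 and 0.62 ± 0.12 (limma adjusted p = 0.00227 and 0.00144). Gla, alpha-galactosidase A, averaged 3.03 ± 0.61 FPKM in BDL+LIG, 2.45 ± 0.181 in BDL and 1.55 ± 0.274 in sham (SD, n = 3 each) and rose by 0.44 ± 0.15 in BDL against sham (limma adjusted p = 0.0472). That call held in 5 of 17 alternatives, in which the change ranged from 0.20 to 0.64. Its lowest libraries held 282 fragments in BDL+LIG, 255 in BDL and 148 in sham, so counting error is larger for Gla than for the other glycosidases. Gaa, the acid alpha-glucosidase that degrades glycogen, averaged 19.4 ± 1.15 FPKM in BDL+LIG, 13.5 ± 1.34 in BDL and 16.6 ± 4.32 in sham (SD, n = 3 each). Its BDL+LIG libraries lay above its BDL libraries, but the change of 0.49 ± 0.16 missed the threshold (limma adjusted p = 0.0724).

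All 3 genes that handle lipids rose in BDL against sham. Lipa, the acid lipase that hydrolyses cholesteryl esters and triglycerides, had 90.8, 106 and 87.1 FPKM in BDL+LIG, 61.7, 61.3 and 58.3 in BDL, and 39.2, 28.2 and 28.9 in sham. It rose by 0.91 ± 0.14 in BDL against sham (limma adjusted p = 0.00104), by 0.63 ± 0.14 in BDL+LIG against BDL (limma adjusted p = 0.0235) and by 1.54 ± 0.14 in BDL+LIG against sham (limma adjusted p = 2.36e-05). Psap encodes the precursor of the saposins, which lift sphingolipids out of membranes for their hydrolases. Psap had 266, 316 and 351 FPKM in BDL+LIG, 194, 216 and 234 in BDL, and 130.0, 121 and 121 in sham. It rose by 0.78 ± 0.13 in BDL against sham (limma adjusted p = 0.00164) and by 0.53 ± 0.13 in BDL+LIG against BDL (limma adjusted p = 0.0332). Neither gene had overlapping groups.

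Npc2, the soluble protein that hands cholesterol to Npc1, had 44.2, 44.6 and 60.2 FPKM in BDL+LIG, 33.8, 37 and 36.9 in BDL, and 19.1, 22.4 and 22.6 in sham. The groups were again apart. Npc2 rose by 0.73 ± 0.14 in BDL against sham (limma adjusted p = 0.00329), and its change of 0.44 ± 0.14 in BDL+LIG against BDL missed the threshold (limma adjusted p = 0.0627). The 2 Niemann-Pick genes thus gave different values in BDL against sham, 0.73 ± 0.14 for Npc2 and -0.21 ± 0.19 for Npc1 (limma adjusted p = 0.426), and the difference between them was not tested.

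**Figure D2:**
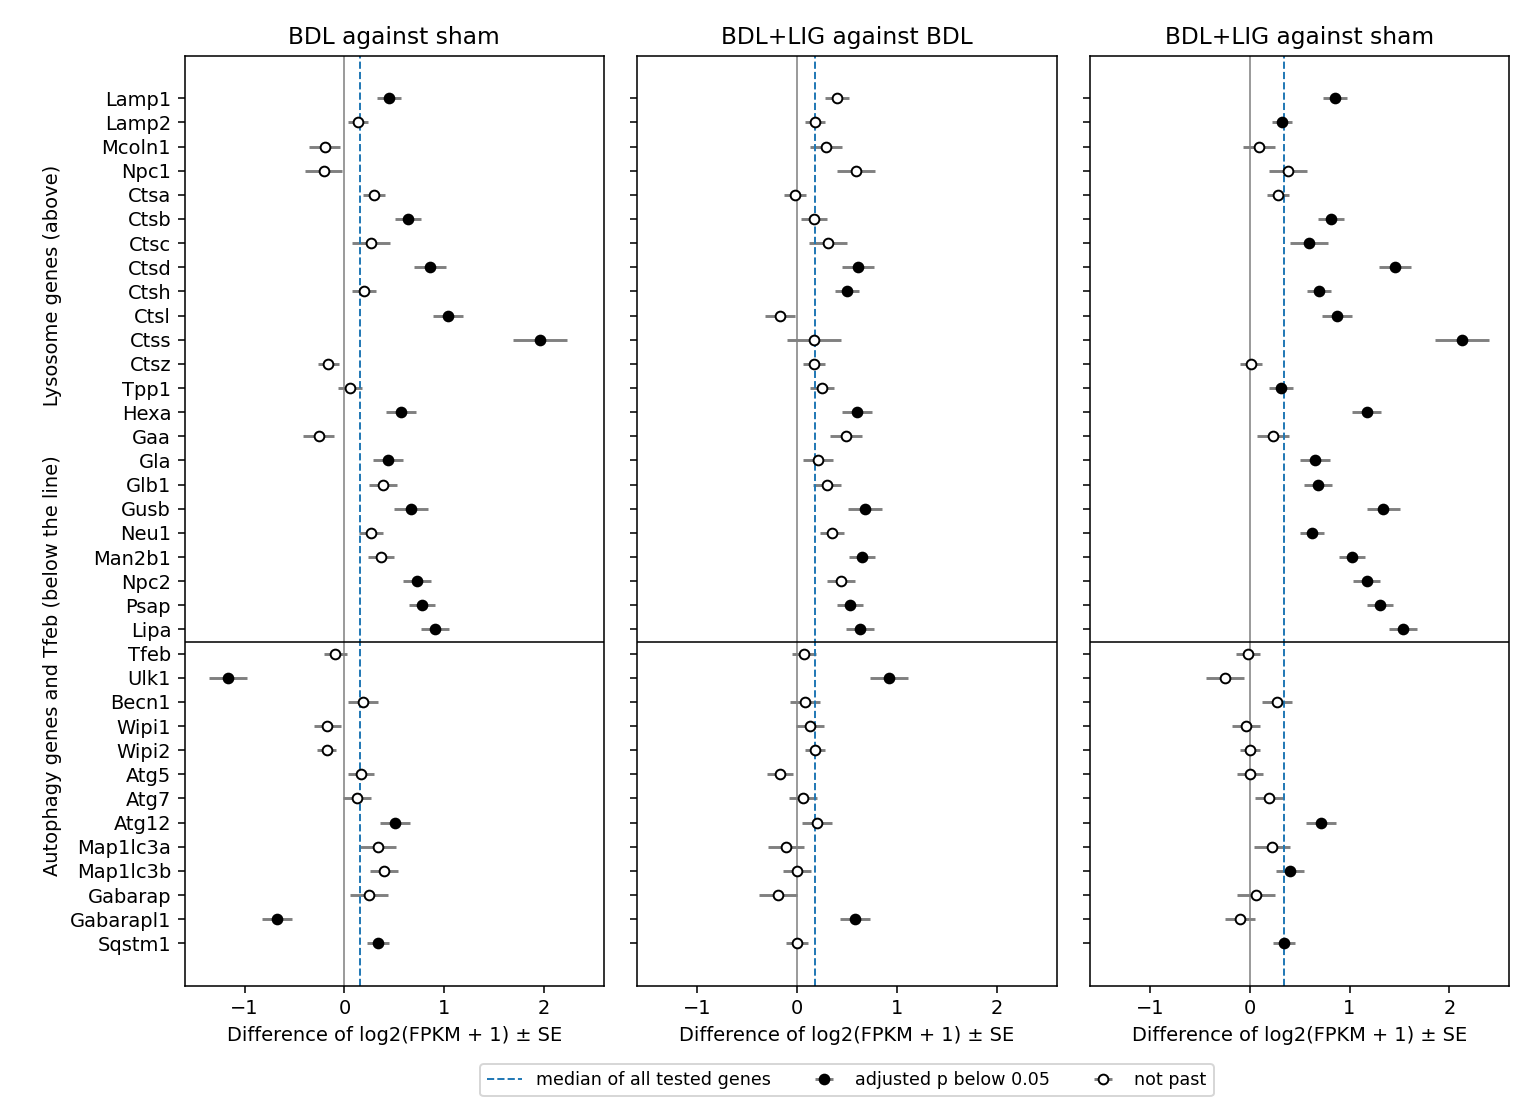
Change of each gene (rows) as the difference of log2(FPKM + 1) with its SE, in BDL against sham, BDL+LIG against BDL and BDL+LIG against sham (panels, 3 libraries a group); filled points have a limma adjusted p below 0.05 and the dashed line is the median of all 10142 tested genes. Lysosome genes lie mostly to the right of the dashed line in all 3 panels, and Ulk1 and Gabarapl1 change side between the first 2.

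Promoter sequence shows how the lysosome genes differ in a feature other than their RNA levels. CACGTG, a palindrome and therefore the same on both strands, is the core of the E-box that TFEB and its relatives bind. It was searched in windows of 300 bases (250 before to 50 after the gene's start) from RefSeq on GRCm38.p6, an earlier build than the GRCm39 named for the expression table. A window was searched for 30 of the 36 genes, and none for Npc1, Ctsb, Ctsh, Becn1, Atg12 and Map1lc3a. The search of the 36 genes left out a chromosome that the count over all genes kept. A gene without a searched window may therefore still have one in RefSeq. The 4 genes below show the range, from 4 copies to none, among genes that rose in BDL against sham. The 250 bases before the start are printed 5′ to 3′ on the strand of the gene, with each CACGTG in capitals.
Lamp1 (chr8:13158911-13159160, plus strand): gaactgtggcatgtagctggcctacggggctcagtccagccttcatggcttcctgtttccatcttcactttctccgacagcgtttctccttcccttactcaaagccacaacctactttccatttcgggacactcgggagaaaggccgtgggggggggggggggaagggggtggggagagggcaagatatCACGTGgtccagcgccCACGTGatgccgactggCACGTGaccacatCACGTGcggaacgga
Ctsd (chr7:142387828-142388077, minus strand): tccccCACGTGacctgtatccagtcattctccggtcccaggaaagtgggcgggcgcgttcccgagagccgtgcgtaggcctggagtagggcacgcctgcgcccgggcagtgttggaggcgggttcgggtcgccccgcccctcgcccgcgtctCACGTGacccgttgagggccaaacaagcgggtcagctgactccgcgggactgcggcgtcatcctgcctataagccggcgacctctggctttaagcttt
Gla (chrX:134601006-134601255, minus strand): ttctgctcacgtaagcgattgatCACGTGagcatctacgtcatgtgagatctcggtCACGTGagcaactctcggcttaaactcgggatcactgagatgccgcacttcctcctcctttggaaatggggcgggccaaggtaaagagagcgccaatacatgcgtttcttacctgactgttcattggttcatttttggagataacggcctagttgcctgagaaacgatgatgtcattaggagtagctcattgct
Lipa (chr19:34527475-34527724, minus strand): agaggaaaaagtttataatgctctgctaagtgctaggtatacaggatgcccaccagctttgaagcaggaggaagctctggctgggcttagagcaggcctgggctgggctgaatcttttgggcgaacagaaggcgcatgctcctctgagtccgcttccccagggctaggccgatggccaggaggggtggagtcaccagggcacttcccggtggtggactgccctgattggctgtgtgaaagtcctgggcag

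The first base of each copy lies at -61, -45, -28 and -15 in Lamp1, counted from the gene's start, at -245 and -98 in Ctsd and at -227 and -194 in Gla, and Lipa has none. CACGTG was found for 8 of the 20 lysosome genes with a window (40%), namely Lamp1, Mcoln1, Ctsa, Ctsd, Ctsl, Gaa, Gla and Glb1. It was found for 2 of 9 autophagy genes (22.2%), Atg5 and Atg7, for 0 of the 3 windows of Tfeb, and for 2187 of all 27025 genes with windows (8.09%). The longer palindrome TCACGTGA, whose copies all contain CACGTG, was found for 4 of the 20 lysosome genes (20%), Mcoln1, Ctsa, Ctsd and Gla, for 0 of 9 autophagy genes and for 304 of all genes (1.12%). A match describes the letters of the window and not binding. E-boxes bound by TFEB are already known from promoters of many lysosomal genes, so the larger share among these genes is not an independent finding.

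Rises were seen among genes with and without the motif. Of the 8 lysosome genes with CACGTG, 4 rose in BDL against sham, 1 in BDL+LIG against BDL and 5 in BDL+LIG against sham, with median changes of 0.42, 0.29 and 0.67. Of the 12 without it, 6, 5 and 11 rose, with medians of 0.47, 0.40 and 1.09. The difference between these sets was not tested. Tfeb itself was low, with 1.03, 1.35 and 1.36 FPKM in BDL+LIG, 0.984, 1.14 and 1.31 in BDL, and 1.35, 1.13 and 1.36 in sham. The groups overlapped, and its changes were -0.09 ± 0.12 in BDL against sham (limma adjusted p = 0.63) and 0.07 ± 0.12 in BDL+LIG against BDL (limma adjusted p = 0.74).

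The 12 autophagy genes showed no common direction. In BDL against sham 2 rose, Atg12 and Sqstm1, and 2 fell, Ulk1 and Gabarapl1. Ulk1 and Gabarapl1 rose in BDL+LIG against BDL and 0 genes fell (limma, with 0 lower also at an unadjusted p below 0.05 and by voom). Atg12, Map1lc3b and Sqstm1 rose in BDL+LIG against sham, with 0 falls by limma, also at an unadjusted p below 0.05, and by voom. Over all tested genes 22.9% rose and 6.76% fell, 9.98% rose and 1.79% fell, and 43.7% rose and 8.92% fell in these 3 comparisons. Median changes were 0.18, 0.07 and 0.13, close to or below the medians of all tested genes given above. In each comparison 3 of the 12 genes had every library of the first group above every library of the second. The same held for 33.7%, 40.7% and 45.7% of all tested genes. The FPKM of the 12 genes summed to 789 to 867 in BDL+LIG libraries, 756 to 823 in BDL libraries and 703 to 830.1 in sham libraries, so that all 3 ranges overlapped. Gabarap and Gabarapl1, with means over all libraries of 348 and 160.5 FPKM, weigh most in these sums. Without sham library 1 the counts of changed genes were 6, 2 and 4, and without BDL library 2 or without BDL library 3 the count for BDL against sham was 2. For BDL+LIG against BDL the count was 0 (2 unadjusted) without any one of the BDL libraries or without BDL+LIG library 2 or 3. It was 1 without BDL+LIG library 1 or sham library 2, and for BDL+LIG against sham it was 1 without BDL+LIG library 1 or 3. Under median-of-ratios scaling 0 autophagy genes rose and 3 fell in BDL against sham, Ulk1, Gabarapl1 and Wipi2, and 0 rose and 4 fell in BDL+LIG against sham, Ulk1, Gabarapl1, Wipi2 and Atg5 (limma, with 5 and 6 genes in either direction at an unadjusted p below 0.05).

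Of the 12 genes, the initiating kinase Ulk1 had the changes of greatest size in BDL against sham and in BDL+LIG against BDL, but not in BDL+LIG against sham. Ulk1 had 10.8, 12.3 and 11.2 FPKM in BDL+LIG, 5.54, 5.93 and 5.26 in BDL, and 18.5, 9.9 and 14.1 in sham. All BDL libraries were below every other library, and sham spread widely around the BDL+LIG values. Ulk1 changed by -1.17 ± 0.19 in BDL against sham (limma adjusted p = 0.00116) and by 0.92 ± 0.19 in BDL+LIG against BDL (limma adjusted p = 0.0186). Its value in BDL+LIG against sham was -0.25 ± 0.19 (limma adjusted p = 0.283).

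Gabarapl1, an LC3-like protein that is conjugated to the growing membrane, followed the same order of groups. It had 187, 152 and 188 FPKM in BDL+LIG, 137, 114 and 101 in BDL, and 214, 183 and 169 in sham. BDL lay below both other groups without overlap. Gabarapl1 changed by -0.68 ± 0.15 in BDL against sham (limma adjusted p = 0.00708), by 0.58 ± 0.15 in BDL+LIG against BDL (limma adjusted p = 0.0369) and by -0.10 ± 0.15 in BDL+LIG against sham (limma adjusted p = 0.584). BDL libraries enter both of the comparisons in which Ulk1 and Gabarapl1 passed, with opposite sign, so these are not independent findings.

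The other conjugated proteins differed from Gabarapl1. Gabarap, its closest relative in the list, averaged 335 ± 35.1 FPKM in BDL+LIG, 381 ± 16.3 in BDL and 329 ± 86.6 in sham (SD, n = 3 each), and its sham libraries ran from 232 to 398. Map1lc3b, the LC3 form most used as a marker of autophagosomes, had 61.2, 46 and 66.7 FPKM in BDL+LIG, 57.6, 57.6 and 56.6 in BDL, and 45.9, 43.3 and 40.6 in sham. It rose by 0.40 ± 0.14 in BDL+LIG against sham (limma adjusted p = 0.0328; -0.05 under median-of-ratios scaling), passing in 6 of 18 alternatives, and the same size of change in BDL against sham missed the threshold (limma adjusted p = 0.0532). Map1lc3a averaged 42.2 ± 0.934 FPKM in BDL+LIG, 45.8 ± 3.05 in BDL and 37 ± 11.3 in sham (SD, n = 3 each) and passed in no comparison.

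Sqstm1 encodes p62, the receptor that ties ubiquitinated cargo to LC3 and is itself degraded by autophagy. Its mRNA was at 119, 105 and 119 FPKM in BDL+LIG, 120.4, 114 and 107 in BDL, and 95.2, 84.4 and 89.1 in sham. Ligated livers were above sham with and without ligustilide, and the values of BDL+LIG and BDL overlapped. Sqstm1 rose by 0.34 ± 0.11 in BDL against sham (limma adjusted p = 0.0372) and in BDL+LIG against sham (limma adjusted p = 0.022; -0.11 under median-of-ratios scaling). The call in BDL against sham held in 10 of 18 alternatives, with changes from 0.10 to 0.43. It was lost by voom, under median-of-ratios scaling and without any one of the BDL libraries. The call in BDL+LIG against sham held in 13 of 18. BDL+LIG against BDL gave 0.00 ± 0.11 (limma adjusted p = 0.996).

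In the conjugation system that attaches these proteins, Atg12 changed and its partners did not pass. Atg12, the ubiquitin-like protein joined to Atg5, had 10.9, 12.2 and 12.9 FPKM in BDL+LIG, 9.31, 10.3 and 11.4 in BDL, and 7.97, 7.58 and 5.52 in sham. Its ligated libraries all exceeded sham, and it rose by 0.51 ± 0.15 in BDL against sham (limma adjusted p = 0.0257) and by 0.71 ± 0.15 in BDL+LIG against sham (limma adjusted p = 0.00275). The call in BDL against sham held in 10 of 18 alternatives, and that in BDL+LIG against sham in 17 of 18. Voom, median-of-ratios scaling and quantile normalization were among those that lost the former. Atg5 averaged 15.5 ± 2.03 FPKM in BDL+LIG, 17.4 ± 1.21 in BDL and 15.4 ± 1.69 in sham, and Atg7, the activating enzyme, 8.63 ± 0.412, 8.23 ± 0.181 and 7.53 ± 1.56 in the same order (SD, n = 3 each). Becn1, the core of the lipid kinase complex, and Wipi1 and Wipi2, which read the lipid it makes, also passed in no comparison. Becn1 averaged 18.6 ± 1.8 FPKM in BDL+LIG, 17.5 ± 1.51 in BDL and 15.4 ± 3.24 in sham, and Wipi1 averaged 8.9 ± 1.41, 7.98 ± 0.627 and 9.13 ± 0.851 in that order. Wipi2, with 15.1 to 16.5 FPKM in BDL+LIG, 13.7 to 14.1 in BDL and 15.2 to 17 in sham, was the other autophagy gene whose BDL libraries lay below both other groups, with changes of -0.18 ± 0.10 in BDL against sham (limma adjusted p = 0.218) and 0.18 ± 0.10 in BDL+LIG against BDL (limma adjusted p = 0.24).

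**Figure D3:**
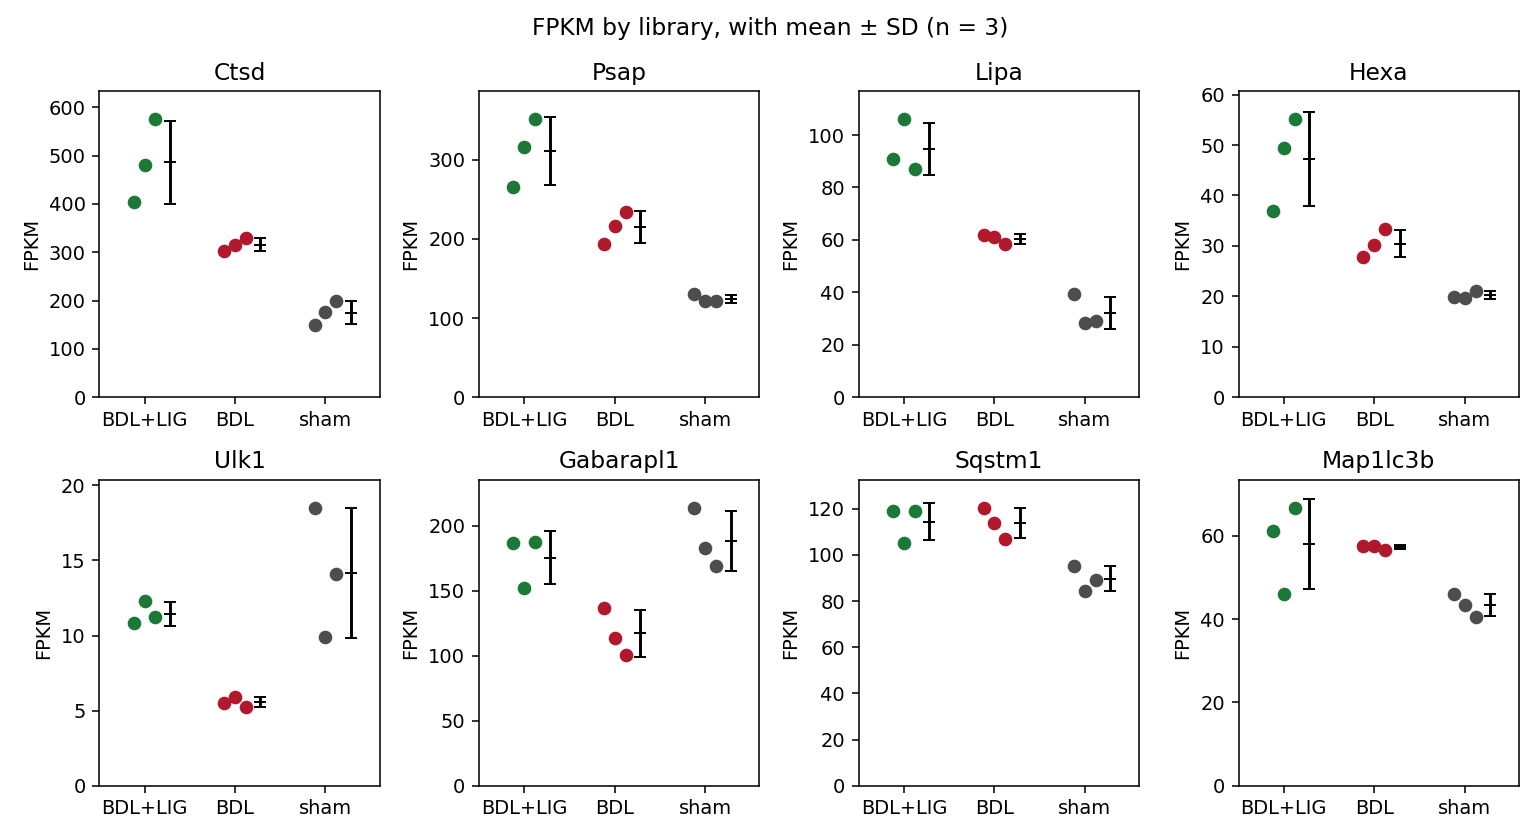
FPKM (vertical axes, from 0) of 4 lysosome genes (top) and 4 autophagy genes (bottom) in each library of BDL+LIG, BDL and sham; points are libraries and bars the mean ± SD (n = 3). Ctsd, Psap, Lipa and Hexa step down from BDL+LIG to BDL to sham without overlap, Ulk1 and Gabarapl1 are lowest in BDL, and Sqstm1 and Map1lc3b overlap between BDL+LIG and BDL.

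Further genes of the pathway, from lists of known lysosomal and autophagy genes, were set beside these. Their counts are to be read against the shares of all tested genes that rose, which were 22.9% in BDL against sham, 9.98% in BDL+LIG against BDL and 43.7% in BDL+LIG against sham. Of 38 tested other lysosomal hydrolases and cofactors, 18 rose in BDL against sham, 8 in BDL+LIG against BDL and 32 in BDL+LIG against sham, and 0 fell in any of them by limma or voom (1 at an unadjusted p below 0.05, in BDL against sham). Under median-of-ratios scaling 13, 1 and 20 rose and 1, 0 and 2 fell. Lgmn, an asparaginyl endopeptidase that processes cathepsins, averaged 127 ± 28.5 FPKM in BDL+LIG, 75.4 ± 7.91 in BDL and 22.9 ± 4.97 in sham (SD, n = 3 each). It rose by 1.70 ± 0.19 in BDL against sham and by 0.72 ± 0.19 in BDL+LIG against BDL (limma adjusted p = 0.000142 and 0.0411). Siae, a sialic acid esterase, rose by 0.86 ± 0.13 and 0.75 ± 0.13 in these comparisons (limma adjusted p = 0.00101 and 0.014). Asah1, acid ceramidase, rose by 1.26 ± 0.16 in BDL against sham (limma adjusted p = 0.000234).

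Among lysosomal membrane proteins outside the 23 genes, the direction of the calls depended on the scaling. Of 21 tested membrane proteins 3 rose in BDL against sham, 4 in BDL+LIG against BDL and 13 in BDL+LIG against sham. Under median-of-ratios scaling 2, 3 and 6 rose and 3, 0 and 1 fell, and under quantile normalization 2, 3 and 8 rose and 2, 0 and 1 fell. Cd63, a tetraspanin of late endosomes, averaged 42.5 ± 13.5 FPKM in BDL+LIG, 37.9 ± 1.47 in BDL and 2.36 ± 0.444 in sham (SD, n = 3 each) and rose by 3.54 ± 0.21 in BDL against sham (limma adjusted p = 2.75e-06). Laptm5, a lysosomal protein of blood cells, rose in BDL against sham by 1.61 ± 0.28 (limma adjusted p = 0.00187) and in BDL+LIG against BDL by 1.07 ± 0.28 (limma adjusted p = 0.037). Tmem192 rose in BDL against sham by 0.41 ± 0.12 (limma adjusted p = 0.0282). Sidt2 rose by 0.65 ± 0.12 in BDL+LIG against BDL (limma adjusted p = 0.0146), with 0.03 ± 0.12 in BDL against sham.

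Of 19 tested subunits of the vacuolar proton pump, which acidifies the lysosome, 10 rose in BDL against sham, 1 in BDL+LIG against BDL and 11 in BDL+LIG against sham, with 2, 0 and 5 rises and 1, 1 and 2 falls under median-of-ratios scaling and 5, 0 and 10 rises and 0, 2 and 0 falls under quantile normalization. Atp6v0d2, a subunit known from osteoclasts and macrophages, averaged 9.03 ± 0.832 FPKM in BDL+LIG, 9.63 ± 1.61 in BDL and 0.64 ± 0.396 in sham (SD, n = 3 each), a change of 2.71 ± 0.19 in BDL against sham. Atp6v0e rose by 0.98 ± 0.23 in the same comparison (limma adjusted p = 0.00958), and Atp6v0e2 changed by 0.96 ± 0.16. The lowest sham library held 45 fragments for Atp6v0d2 and 11 for Atp6v0e2. Sham means of both were below 1 FPKM, and both met the filter only because of their ligated libraries. The subunit that rose under ligustilide was Atp6v1b2, by 0.49 ± 0.12 (limma adjusted p = 0.0276), after a rise of the same size in BDL against sham.

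Of 12 tested genes for sorting enzymes to the lysosome, 4 rose in BDL against sham, 0 changed in BDL+LIG against BDL (limma, 4 at an unadjusted p below 0.05, 1 by voom) and 7 rose in BDL+LIG against sham. Under median-of-ratios scaling 2, 0 and 3 rose and 0, 0 and 1 fell. The 4 were Gnptab, which makes the mannose 6-phosphate tag (0.65 ± 0.18, limma adjusted p = 0.0193), Gga2, an adaptor (0.47 ± 0.12, limma adjusted p = 0.016), and the mannose 6-phosphate receptors Igf2r (0.43 ± 0.12, limma adjusted p = 0.0232) and M6pr (0.37 ± 0.10, limma adjusted p = 0.0196). Of 18 tested genes of the TFEB family and of mTORC1 control at the lysosome, 4 rose and 1 fell in BDL against sham and 2 rose in BDL+LIG against BDL, with 2 rises and 2 falls, and 1 rise, under median-of-ratios scaling. Rragd, a Rag GTPase, averaged 4.1 ± 0.844 FPKM in BDL+LIG, 2.35 ± 0.618 in BDL and 0.0892 ± 0.0602 in sham (SD, n = 3 each). Its change in BDL against sham was 1.61 ± 0.17. Its sham libraries were all below 1 FPKM, with 9 fragments in the lowest, so Rragd was tested only because of its ligated libraries. In BDL+LIG against BDL Rragd rose by 0.61 ± 0.17 (limma adjusted p = 0.0485). Rragc and Lamtor1, which hold mTORC1 at the lysosome with it, rose by 0.67 ± 0.15 and 0.67 ± 0.16 in BDL against sham (limma adjusted p = 0.00643 and 0.00912). Rptor, the mTORC1 subunit raptor, rose by 0.62 ± 0.13 in BDL+LIG against BDL (limma adjusted p = 0.0207).

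Other core autophagy genes were again divided. Of 27 tested, 2 rose and 3 fell in BDL against sham, 1 rose in BDL+LIG against BDL, and 8 rose and 2 fell in BDL+LIG against sham. Under median-of-ratios scaling 0 rose and 9 fell in BDL against sham and 0 rose and 4 fell in BDL+LIG against sham. Atg14, which directs the Beclin 1 complex to autophagy, averaged 5.46 ± 0.18 FPKM in BDL+LIG, 3.15 ± 0.257 in BDL and 4.66 ± 0.894 in sham (SD, n = 3 each), lowest in BDL as for Ulk1. It changed by -0.44 ± 0.14 in BDL against sham (limma adjusted p = 0.0362) and by 0.64 ± 0.14 in BDL+LIG against BDL (limma adjusted p = 0.0222). Atg101, a subunit of the ULK1 complex, changed by -0.46 ± 0.14 in BDL against sham (limma adjusted p = 0.0291) and by 0.45 ± 0.14 in BDL+LIG against BDL, which missed the threshold (limma adjusted p = 0.0596). Atg10, an enzyme of Atg12 conjugation, changed by -0.46 ± 0.13 in BDL against sham. Its BDL libraries were all below 1 FPKM, so its sham libraries took it past the filter. Vmp1, a lipid scramblase, rose by 0.45 ± 0.14 in BDL against sham (limma adjusted p = 0.0309).

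Of 9 tested autophagy receptors 2 rose in BDL against sham and 0 changed in BDL+LIG against BDL (limma, 1 at an unadjusted p below 0.05, 0 by voom). These were Fundc1, a mitophagy receptor (0.57 ± 0.13, limma adjusted p = 0.00777), and Retreg1, a receptor for endoplasmic reticulum (0.52 ± 0.17, limma adjusted p = 0.0462). Ncoa4, the receptor for ferritin, gave 0.78 ± 0.29 in BDL against sham (limma adjusted p = 0.0685). Of 14 genes for fusion of autophagosome and lysosome 2 rose in BDL against sham and 2 in BDL+LIG against BDL, with 0 and 1 rises under median-of-ratios scaling. In BDL against sham they were the GTPase Rab7 (0.37 ± 0.10, limma adjusted p = 0.0152) and the SNARE Snap29 (0.52 ± 0.15, limma adjusted p = 0.0223), and Vps39, a tethering subunit, rose by 0.61 ± 0.13 in BDL+LIG against BDL (limma adjusted p = 0.0229). Vti1b, another SNARE, gave 0.31 ± 0.15 in BDL against sham (limma adjusted p = 0.149).

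Markers of cell types other than macrophages moved too. Over all tested genes 22.9% rose and 6.76% fell in BDL against sham, and 9.98% rose and 1.79% fell in BDL+LIG against BDL. Of 6 tested cholangiocyte markers 5 rose in BDL against sham and 0 changed in BDL+LIG against BDL (limma, 1 at an unadjusted p below 0.05, 0 by voom), with sums of 42.1 to 55.6 in BDL+LIG, 34.8 to 52 in BDL and 7.44 to 14.8 in sham. All 6 markers of sinusoidal endothelium, a cell type that also takes up and degrades much material, rose in BDL+LIG against BDL and 1 in BDL against sham, with sums of 50.6 to 74, 34.8 to 37 and 25.4 to 28.9. In BDL+LIG against BDL 3 of these 6 rose under median-of-ratios scaling and 5 under quantile normalization. Of 8 stellate cell and fibroblast markers 4 rose in BDL against sham and 3 in BDL+LIG against BDL, with sums of 92 to 180.3, 62.7 to 74.3 and 13.6 to 36.5. For these 8 the rises were 3 and 3 under median-of-ratios scaling and 2 and 4 under quantile normalization. Of 11 hepatocyte markers 1 rose and 1 fell in BDL against sham and 0 changed in BDL+LIG against BDL (limma, 1 at an unadjusted p below 0.05, 0 by voom), with sums of 49190 to 54194, 41363 to 49343 and 58947 to 69427, so the liver label held. Of 4 tested neutrophil markers 4 rose in BDL against sham. In BDL+LIG against BDL 1 of them fell, S100a9, by -1.11 ± 0.29 (limma adjusted p = 0.0389), and 2 of the 4 had changes above 0. By voom, median-of-ratios scaling and quantile normalization 1 fell as well. Neutrophil markers summed to 16.1 to 40.2, 42.8 to 46.9 and 4.11 to 5.77, lymphocyte markers to 1.68 to 6.97, 0.91 to 1.9 and 1.18 to 2.05, and exocrine pancreas markers to 5.24 to 6.04, 4.47 to 7.54 and 7.89 to 23.4. Of the listed markers, 3 of 6 for exocrine pancreas and 11 of 12 for hepatocytes were in the expression table. That table held no gene at 0 in all 9 libraries, so markers that were not detected could not be seen in it. The part of these cells in the results was not tested.

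**Figure D4:**
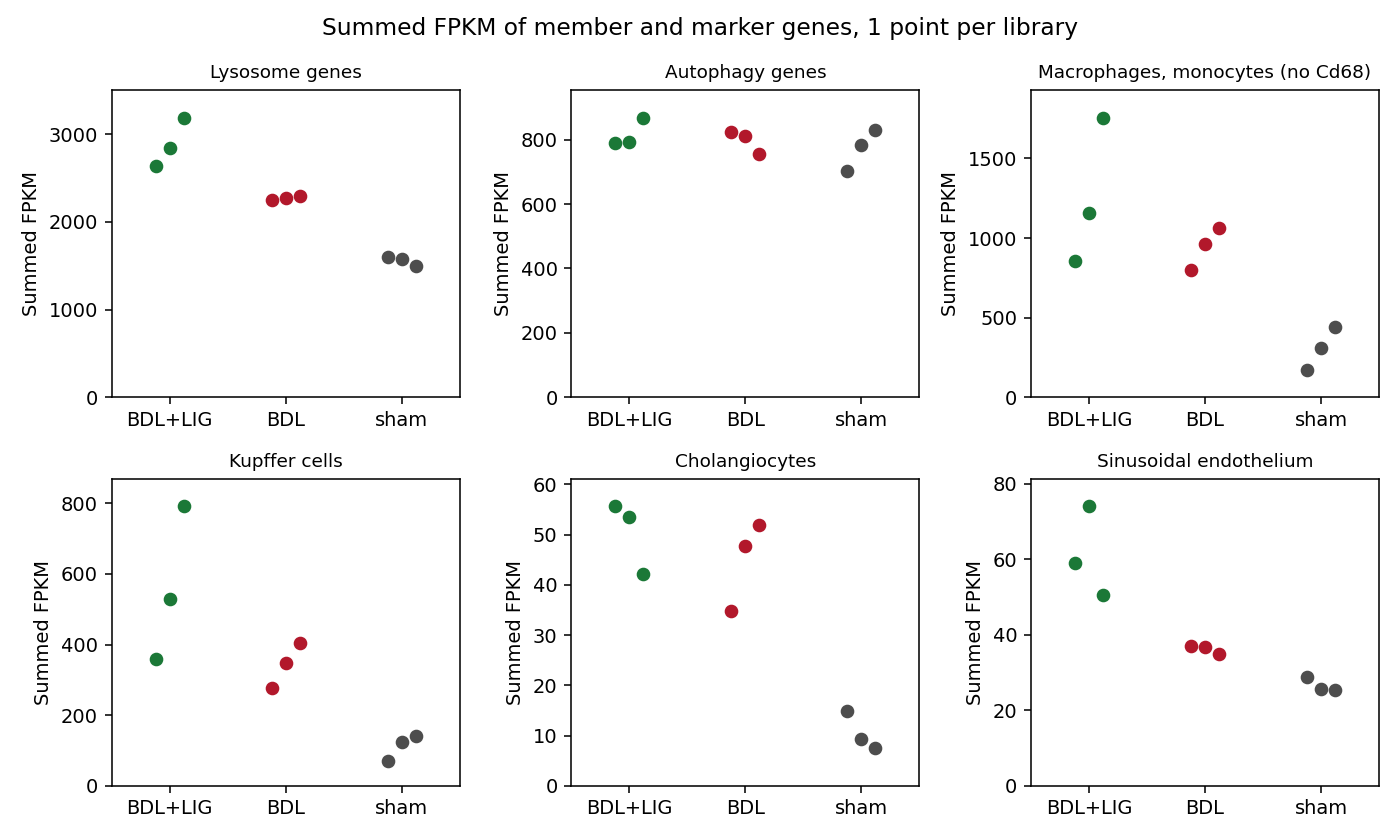
Summed FPKM (vertical axes, from 0) of the 23 lysosome genes, the 12 autophagy genes and 4 lists of cell type markers, with 1 point for each library of BDL+LIG, BDL and sham. The sums of lysosome genes and of endothelial markers do not overlap between groups, those of macrophage, Kupffer cell and cholangiocyte markers separate ligated from sham livers, and the sums of autophagy genes overlap.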

How the data were processed

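Per the labels' protocols, TRIzol was used to extract total RNA from liver and the VAHTS Universal V6 kit to prepare libraries. Tools named in the submitters' processing notes are fastp, HISAT2 2.1.0 and DESeq2, with the build GRCm39. How fragments were counted, and over which annotation, is not stated there. The authors deposited FPKM, in 1 table of 21470 genes and 9 libraries whose titles give group and replicate number. FPKM hold no counts, but their steps allowed whole fragments to be recovered (tolerance 0.02 fragments) in 19446 of the 19449 genes detected in 2 libraries or more (99.98%). The fragments were used for depth, for comparing libraries by chi-square and for 1 alternative test. They leave out Alb, Apoe and COX1, which were not recovered. Totals per library, used as depth and as library size in voom, therefore lack these genes. Alb averaged 26727 FPKM in BDL+LIG, 18148 in BDL and 28773 in sham. FPKM share out each library's total, so a rise of abundant genes lowers the others.

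Differences were tested with limma 3.58.1 under R 4.3.3 (lmFit, then eBayes with trend). The input was log2(FPKM + 1) of the 10142 genes that reached 1 FPKM in 3 libraries or more, which included all 36, and a single fit held the 9 libraries. The Benjamini-Hochberg adjustment ran over all tested genes of a comparison. With 3 libraries against 3 the smallest two-sided p of an exact permutation test is 0.1, so limma's use of the spread of all genes is what allows smaller ones. The fit was tested on simulated data. All 36 genes were named. From each other pathway list the 3 genes with the smallest p in BDL against sham and the 1 with the smallest p in BDL+LIG against BDL were named, and from each marker list up to 2 genes of high mean FPKM. Not every gene that this rule names is reported here. The genes and lists were chosen with earlier results of these data known. Alternatives were each library left out in turn, a pseudocount of 0.1, testing every gene, testing genes that averaged 5 FPKM or more, scaling by median of ratios, rescaling to TPM, quantile normalization, fitting 2 groups alone, and a block for replicate number. Limma with voom on recovered fragments was added after seeing the data. Promoter windows were read from RefSeq on GRCm38.p6 and searched on both strands.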

Additional observations from a re-analysis of the deposited data

How the results depend on the processing

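The main fit tested 10142 genes, whereas 21470 were tested with no filter, 5293 at a mean of at least 5 FPKM and 11475 with TPM. Counts over all genes under these settings are therefore out of other totals. Counts of changed genes in BDL+LIG against BDL varied most. Where 1194 of the 10142 tested genes were called, 623 were called with no filter, 575 at a mean of at least 5 FPKM, 733 with median-of-ratios scaling, 2056 with TPM, 3433 with the 2 groups alone and 742 with the replicate block, and 0 to 3144 when 1 library was left out (0 without BDL library 2, where limma gave 2317 at an unadjusted p below 0.05). The 7 lysosome genes became 1 with no filter, 0 with median-of-ratios scaling, 12 with TPM and 13 with the 2 groups alone, and 0 to 12 when 1 library was left out. The 2 autophagy genes became 1 with no filter, with median-of-ratios scaling and with quantile normalization, and 0 to 2 when 1 library was left out. In BDL against sham the 3008 genes became 1838 at a mean of at least 5 FPKM and 1894 to 4668 when 1 library was left out (4668 without sham library 1), the 11 lysosome genes 7 to 12, and the 4 autophagy genes 2 with voom and 2 to 6. In BDL+LIG against sham the 5335 genes became 2765 at a mean of at least 5 FPKM, the 18 lysosome genes 11 with median-of-ratios scaling, and the 3 autophagy genes 6 with TPM, 1 with the 2 groups alone and 1 to 4 when 1 library was left out. Apart from the differing numbers of tested genes, the cause of these shifts was not tested. Of all tested genes 2322 rose and 686 fell in BDL against sham, 1012 and 182 in BDL+LIG against BDL, and 4430 and 905 in BDL+LIG against sham. Median-of-ratios scaling gave 1576 and 1366, 385 and 348, and 2462 and 2356, and quantile normalization 1510 and 1402, 575 and 531, and 2273 and 2247.

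Ctsd, Ctsl, Ctss, Psap, Lipa, Ulk1 and Gabarapl1 passed in BDL against sham under all 18 alternatives, as did Lamp1, Ctsd, Ctss, Hexa, Man2b1, Npc2, Psap and Lipa in BDL+LIG against sham, where Gusb passed under the 17 that tested it, whereas in BDL+LIG against BDL 0 of the 9 genes called by limma did. Deviations from the group means correlated at -0.126 to 0.285 between same-numbered libraries of different groups and at -0.304 to 0.14 between differently numbered ones. The highest values were those of BDL+LIG and sham libraries numbered 3 (0.285) and 1 (0.254). Whether the numbers pair the libraries is not settled by these values, and the main fit did not pair them. With the number as a replicate block 10, 6 and 17 lysosome genes and 4, 2 and 3 autophagy genes changed in the 3 comparisons.

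Changes turned sign as follows, most of them in genes that had not passed. In BDL against sham, median-of-ratios scaling gave -0.10 for Lamp2, -0.05 for Ctsh, -0.17 for Tpp1, -0.04 for Becn1, -0.06 for Atg5 and -0.09 for Atg7, quantile normalization -0.05 for Tpp1 and -0.06 for Atg7, and 1 library left out -0.41 to 0.01 for Npc1 and -0.02 to 0.15 for Tpp1. In BDL+LIG against BDL, median-of-ratios scaling gave -0.02 for Lamp2, -0.03 for Ctsb, -0.04 for Ctss, -0.04 for Ctsz, -0.05 for Tfeb, -0.12 for Becn1, -0.05 for Wipi1, -0.01 for Wipi2, -0.13 for Atg7, -0.20 for Map1lc3b and -0.21 for Sqstm1. Quantile normalization gave -0.04 for Gla, -0.16 for Tfeb, -0.04 for Becn1, -0.05 for Wipi1, -0.12 for Atg7 and -0.03 for Map1lc3b, and TPM 0.13 for Ctsa and 0.03 for Map1lc3a. With 1 library left out Ctsa ranged from -0.08 to 0.03, Ctss from -0.12 to 0.40, Map1lc3b from -0.11 to 0.16 and Sqstm1 from -0.04 to 0.06. In BDL+LIG against sham, median-of-ratios scaling gave -0.13 for Lamp2, -0.33 for Mcoln1, -0.06 for Npc1, -0.17 for Ctsa, -0.45 for Ctsz, -0.13 for Tpp1, -0.20 for Gaa, -0.16 for Becn1, -0.43 for Wipi2, -0.43 for Atg5, -0.22 for Atg7, -0.22 for Map1lc3a, -0.05 for Map1lc3b, -0.39 for Gabarap and -0.11 for Sqstm1. Quantile normalization gave -0.20 for Mcoln1, -0.04 for Gaa, -0.00 for Becn1, -0.26 for Wipi2, -0.26 for Atg5, -0.18 for Atg7 and 0.01 for Gabarapl1, voom -0.04 for Ctsz, Wipi2 and Atg5 each, and TPM 0.14 for Tfeb, 0.18 for Wipi1 and 0.13 for Gabarapl1. With 1 library left out Mcoln1 ranged from -0.06 to 0.23, Ctsz from -0.04 to 0.08, Tfeb from -0.07 to 0.05, Wipi1 from -0.12 to 0.08, Wipi2 from -0.03 to 0.05, Atg5 from -0.09 to 0.08 and Gabarap from -0.17 to 0.22. Lamp2, Tpp1, Map1lc3b and Sqstm1 were the called genes among these, all in BDL+LIG against sham under median-of-ratios scaling.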
